A study of Mus musculus with 4 samples.

Results

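The genes described are those that make cholesterol from acetyl-CoA, control that synthesis through the sterol regulatory element-binding proteins (SREBPs), and move, export or store the sterol inside the cell. They were chosen by name, as 30 symbols, and a symbol counted as measured where a row of the array table carried that gene symbol and no other. This held for 25 of the 30, out of 30142 genes with a row. Of the other 5, Tm7sf2, Msmo1 and Srebf1 lay only on rows with several symbols, and Acat2 and Soat1 matched no row. For Msmo1 the second symbol was Sc4mol, an older name of the same gene, and the rule left that row out. No value is given for these 5. The 25 comprised 17 enzymes of synthesis, 4 genes of SREBP control (Srebf2, Scap, Insig1 and Insig2) and 4 of sterol movement and export (Stard4, Abca1, Npc1 and Npc2).

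The study measured outgrowths of mouse blastocysts on 4 whole-transcript arrays, 2 from wild-type embryos and 2 from Tip110-/- embryos, to ask what the loss of Tip110 does in the early embryo. Tip110 is another name of Sart3, a factor that helps reassemble splicing particles. Per the labels' protocols, blastocysts from intercrosses of Tip110+/- mice were flushed at 3.5 days post coitum and kept one to a well for 4 to 6 days. The medium was one for embryonic stem cells that contains knockout serum replacement, and no treatment was given. Both genotypes have a first replicate made from 3 pooled outgrowths and a second made from 1 outgrowth. RNA collected per outgrowth was 249 pg and 178 pg in the wild-type samples and 55 pg and 144 pg in the Tip110-/- samples, pool first. An outgrowth is a mixture of cells: trophoblast spreads over the dish around descendants of the inner cell mass, so fewer cells of a type and less RNA per cell cannot be told apart here.

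Cells make cholesterol by condensing acetyl-CoA to HMG-CoA and mevalonate, building isoprenoid diphosphates, joining these to squalene, closing squalene to lanosterol, and trimming lanosterol to cholesterol. When membrane sterol is low, SCAP carries the SREBPs from the endoplasmic reticulum to the Golgi, where they are cut and released to switch on the genes of synthesis. When sterol is high, the INSIG proteins hold SCAP back. Growing embryonic cells need cholesterol for new membranes, and its precursors are used to attach lipid anchors to signalling proteins.

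Signals are given on the log2 scale as deposited, so a difference of -1 is a signal 2-fold lower. Differences are Tip110-/- minus wild-type. Background was set for each array at the 95th percentile of its 23 rows whose identifiers mark them as background probes, which lay between 4.24 and 4.71. Of the 25 members, 20 were above that level on all 4 arrays, and values near it understate a change. Over all 30142 genes the differences had a median of 0.15, toward higher signal in Tip110-/-. Sart3 itself was at 4.94 and 5.98 in wild-type and at 4.28 and 4.54 in Tip110-/- (difference -1.05 ± 0.39, SE; limma adjusted p = 0.386). Whether its probes lie in the deleted part is not given in the sources used here. Rows marked as positive controls had wild-type medians of 9.80 and 9.66 and Tip110-/- medians of 8.69 and 9.51, the lowest in the pooled Tip110-/- array.

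Of the 17 enzymes of cholesterol synthesis, 15 had a negative difference, with Hmgcs1 19.8-fold lower in the Tip110-/- outgrowths. A negative difference held for 30.4% of all genes and for 44.0% of genes above the median row of the table. Among the 25 members 6 had an unadjusted p under 0.05 and lower signal: the enzymes Hmgcs1, Mvk, Pmvk, Fdps, Fdft1 and Nsdhl. In the other direction 1 reached that mark, the SREBP brake Insig2, and 18 did not pass. None of the 4 genes of sterol movement and export passed. Over all genes the same mark was reached by 3.67% toward lower and by 8.99% toward higher signal. All 25 members lay above the median row of the table, and among the 17491 genes above it the shares were 6.17% lower and 5.64% higher. The members' share was 24% lower. All 7 differed at least 2-fold, which together with the mark held for 3% of all genes toward lower and 1.53% toward higher signal. No member passed the threshold of 0.05 after adjustment over all genes in limma (0% of all genes did; members' adjusted p = 0.284 to 0.986). The 7 members past the unadjusted mark are therefore described by their size and their values on each array.

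Both Tip110-/- arrays lay below both wild-type arrays in 13 of the 25 members and above them in 2, Insig2 and Abca1, the latter not above background on any array. In the remaining 10 the groups overlapped. Over all genes the first pattern held for 12.9% and the second for 39.9%; among genes above the median row these shares were 20.6% and 26.6%. The median difference of the 25 members was -0.68, and -0.83 relative to all genes. It was -0.73 over the 17 enzymes, -0.89 over the 4 control genes and 0.36 over the 4 genes of movement and export. The members' median difference was -0.43 without the pooled wild-type array and -1.09 without the single wild-type array. Without the pooled Tip110-/- array it was -0.55, and without the single Tip110-/- array -0.73. The count of lower members past the mark also changed, and shares of all genes at these settings are not given. Nothing in the labels beyond the word biological says how far the samples of a genotype were separate, so p-values measure the spread between these samples.

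**Figure D1:**
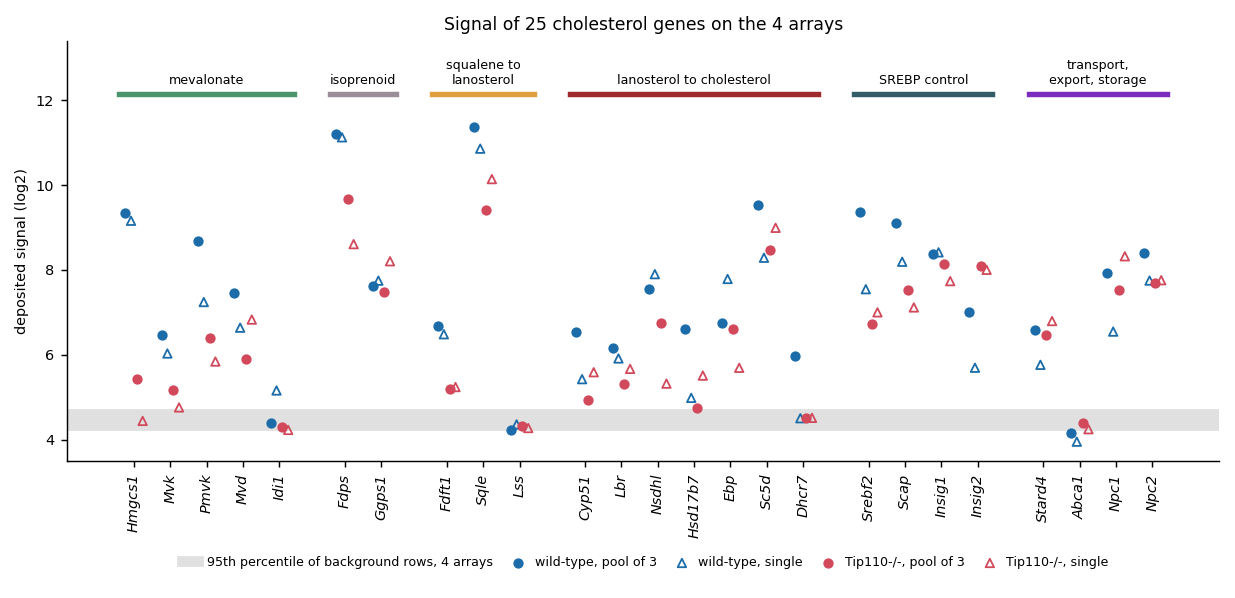
Deposited log2 signal (vertical axis) of the 25 measured members, ordered along the pathway, on each of the 4 arrays; circles are pools of 3 outgrowths, triangles single outgrowths, blue wild-type and red Tip110-/-, and the grey band spans the 95th percentile of background rows on the 4 arrays. Hmgcs1 shows the widest gap, from 9.33 and 9.16 in wild-type to 5.44 and 4.44 in Tip110-/-, and Insig2 lies the other way.

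The mevalonate steps held the widest difference. Hmgcs1, which makes HMG-CoA and so feeds mevalonate synthesis, had a wild-type signal of 9.33 for the pool and 9.16 for the single outgrowth. In Tip110-/- it was at 5.44 in the pool and at 4.44 in the single outgrowth, the latter under that array's background level of 4.71. The wild-type arrays lay close together and both Tip110-/- arrays far below them. The difference was -4.31 ± 0.50 (SE), a 19.8-fold lower signal (limma adjusted p = 0.284). It was between -4.80 and -3.81 when each array was left out in turn.

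The promoter of Hmgcs1 is shown because it was the sole one, among the 20 members with an entry in the RefSeq promoter table (build GRCm38.p6), to hold the core letters of a sterol regulatory element, TCACNCCAC, searched on both strands. Fdps and Fdft1, both past the unadjusted mark, and Sqle, Stard4 and Npc1 had no entry, so their promoters were not searched. The windows run from 250 bases before to 50 after each start. That core was in 1.44% of the 27025 genes with a promoter entry and in 1.36% of those above the median row. The shorter CCAAT box, searched as ATTGG on both strands and known as the binding letters of NF-Y, was in 18 of the 20, or 90%, against 41.1% of all genes and 42.8% of genes above the median row. The GC box GGGCGG was also in 18 of the 20, against 38.2% of all genes and 61.4% of genes above the median row, and the E-box CACGTG in 6, against 8.09% and 10.8%. All were searched on both strands, and none of these motifs contains another. Below are the 250 bases before the start, 5′ to 3′ on the gene's strand, with the sterol element core and the CCAAT letters in capitals; they do not overlap. The core begins 137 bases before the start and the CCAAT letters 237, 176 and 45 bases before it; a further CCAAT match lies 10 bases after the start, outside the printed bases.
Hmgcs1, chr13:119690101-119690350, plus strand: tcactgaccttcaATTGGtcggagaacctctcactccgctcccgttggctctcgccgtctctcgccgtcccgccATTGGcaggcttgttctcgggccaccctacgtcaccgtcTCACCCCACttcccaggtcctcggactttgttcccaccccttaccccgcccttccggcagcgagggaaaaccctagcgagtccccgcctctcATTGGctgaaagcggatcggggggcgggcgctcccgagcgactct
Matches are a description of letters and no evidence of binding.

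The kinases that follow had smaller differences. Mvk, mevalonate kinase, was at 6.46 and 6.03 in wild-type and at 5.18 and 4.76 in Tip110-/-, with no overlap. Its difference was -1.27 ± 0.32 (SE), 2.42-fold lower (limma adjusted p = 0.339). It was nearly equal in the pooled and the single pair, at -1.28 and -1.27. Pmvk, the phosphomevalonate kinase, was at 8.69 and 7.24 against 6.39 and 5.84, also without overlap. Its difference was -1.85 ± 0.62 (SE), 3.60-fold lower (limma adjusted p = 0.368). The spread between the wild-type arrays, 1.02 (SD, n = 2), was wide for Pmvk. Mvk no longer reached the unadjusted mark without the single Tip110-/- array (-1.06), nor Pmvk without the pooled wild-type array (-1.13) or without either Tip110-/- array (-2.12 and -1.58).

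The last mevalonate steps did not pass. Mvd, the decarboxylase that makes isopentenyl diphosphate, differed by -0.68 ± 0.52 (SE). Its single Tip110-/- value of 6.83 lay within the wild-type range of 6.64 to 7.46, so the groups overlapped. Idi1, the isomerase of that product, was at 4.40 and 5.16 against 4.30 and 4.23, with both Tip110-/- arrays under background. Its difference of -0.51 ± 0.29 (SE) did not pass, but reached the unadjusted mark without the pooled wild-type array (-0.89). Without the single wild-type array it was -0.13.

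The prenyl diphosphate synthases come next. Fdps, which makes farnesyl diphosphate for both sterols and lipid anchors, was at 11.20 and 11.12 in wild-type and at 9.68 and 8.61 in Tip110-/-. Both Tip110-/- arrays were well below, and the difference was -2.02 ± 0.61 (SE), 4.05-fold lower (limma adjusted p = 0.348). Without the pooled wild-type, the single wild-type or the single Tip110-/- array Fdps did not reach the unadjusted mark (-1.98, -2.06 and -1.48). Ggps1, which lengthens farnesyl to geranylgeranyl diphosphate on a branch away from cholesterol, was at 7.63 and 7.75 against 7.49 and 8.20. Its groups overlapped, with a difference of 0.16 ± 0.49 (SE) that turned to -0.0086 with each array centred on its median. A test of Fdps against Ggps1 was not made.

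Fdft1, the squalene synthase that commits farnesyl diphosphate to sterols, was at 6.67 and 6.48 in wild-type and at 5.20 and 5.24 in Tip110-/-. The values within each genotype were close and the groups well apart. The difference was -1.36 ± 0.29 (SE), 2.56-fold lower (limma adjusted p = 0.332). Fdft1 and Hmgcs1 were the 2 members that reached an unadjusted p under 0.05 under all 13 other settings tried, leaving out each array included. Sqle, the squalene epoxidase, was at 11.37 and 10.86 against 9.42 and 10.14. These groups did not overlap either, but the difference of -1.33 ± 0.57 (SE) did not pass (limma adjusted p = 0.399). Lss, lanosterol synthase, lay between 4.23 and 4.36 on all 4 arrays, at or under background, so nothing can be said of its level.

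**Figure D2:**
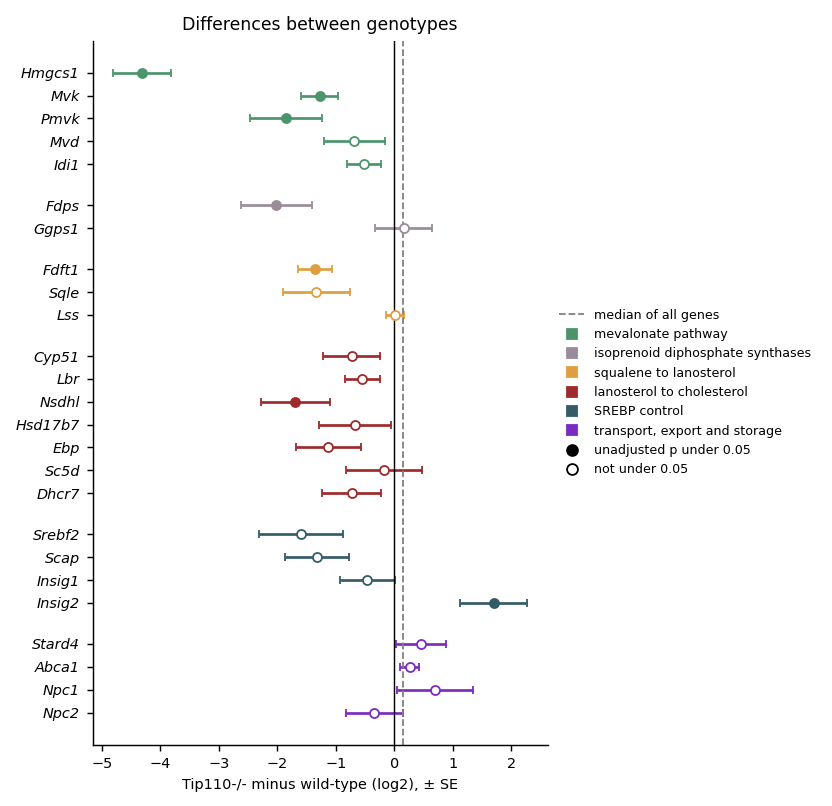
Difference in log2 signal, Tip110-/- minus wild-type, with its SE (horizontal axis) for the 25 members in pathway order; filled points had an unadjusted p under 0.05 in limma and the dashed line marks the median of all genes, 0.15. Filled points are 6 enzymes below 0 and Insig2 at 1.70; the genes of transport lie around the dashed line.

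After lanosterol, all 7 enzymes measured had a negative difference, against 30.4% of all genes and 44.0% of genes above the median row. The median of the 7 was -0.73, and 1 of them passed the unadjusted mark. That was Nsdhl, the dehydrogenase that helps remove methyl groups from the sterol ring. It was at 7.55 and 7.90 in wild-type and at 6.74 and 5.32 in Tip110-/-, with the lowest value in the single outgrowth. Its difference was -1.69 ± 0.59 (SE), 3.24-fold lower (limma adjusted p = 0.375). Nsdhl did not reach the mark without the pooled wild-type, the single wild-type or the single Tip110-/- array (-1.87, -1.52 and -0.98).

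Ebp, the sterol isomerase, was at 6.76 and 7.79 in wild-type and at 6.60 and 5.69 in Tip110-/-. The pooled samples differed little and the single ones widely, by -0.16 and -2.09, and the difference of -1.13 ± 0.56 (SE) did not pass (limma adjusted p = 0.423). Lbr, the lamin B receptor that also reduces the sterol ring, lay at 6.15 and 5.91 against 5.31 and 5.67. The other 4 enzymes were the lanosterol demethylase Cyp51, the ketosteroid reductase Hsd17b7, the desaturase Sc5d and Dhcr7, which makes cholesterol from its last precursor. In each of these 4 at least 1 Tip110-/- value lay within the wild-type range, with differences from -0.73 to -0.17. Without the single wild-type array Cyp51 (-1.29), Hsd17b7 (-1.48) and Dhcr7 (-1.46) reached the unadjusted mark, and without the pooled wild-type array Cyp51 was -0.17, while Hsd17b7, Sc5d and Dhcr7 turned to 0.15, 0.44 and 0.0060. Dhcr7 was above background on 1 array alone, the pooled wild-type one, at 5.97.

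Of the 4 control genes 1 reached the unadjusted mark, Insig2, with higher signal in Tip110-/-. Srebf2 encodes SREBP2, the main activator of cholesterol synthesis genes. Its wild-type signal was 9.38 in the pool and 7.55 in the single outgrowth, and the Tip110-/- values were 6.74 and 7.0. The groups did not overlap, but the wild-type spread was wide at 1.29 (SD, n = 2) and the difference of -1.59 ± 0.72 (SE) did not pass (limma adjusted p = 0.404). Scap, the sterol-sensing escort, was at 9.11 and 8.19 against 7.53 and 7.12. Its difference was -1.32 ± 0.55 (SE), 2.50-fold lower, and did not pass either (limma adjusted p = 0.396). Without the single wild-type array both reached the unadjusted mark, at -2.51 for Srebf2 and -1.78 for Scap. Without the pooled wild-type array neither did, at -0.68 and -0.87.

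Insig1 and Insig2 encode related proteins that retain SCAP in the endoplasmic reticulum. Insig1, itself an SREBP target in other cells, was at 8.38 and 8.41 in wild-type and at 8.13 and 7.74 in Tip110-/-. Its difference of -0.46 ± 0.47 (SE) did not pass (limma adjusted p = 0.616). Insig2 was at 7.01 and 5.69 in wild-type and at 8.09 and 8.0 in Tip110-/-. Both Tip110-/- arrays lay above both wild-type arrays and close to each other, while the wild-type spread was 0.93 (SD, n = 2). The difference was 1.70 ± 0.57 (SE), 3.24-fold higher (limma adjusted p = 0.369). Without the single wild-type array or without either Tip110-/- array Insig2 did not reach the unadjusted mark (1.04, 1.65 and 1.74). Whether Insig1 and Insig2 differ in their response was not tested.

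Insig2 has 3 starts in the RefSeq promoter table, and none of their windows holds the sterol element core. The window with CCAAT letters is shown as the counterpart to Hmgcs1, with those letters in capitals, 5′ to 3′ on the gene's strand, build GRCm38.p6.
Insig2, chr1:121332590-121332839, minus strand: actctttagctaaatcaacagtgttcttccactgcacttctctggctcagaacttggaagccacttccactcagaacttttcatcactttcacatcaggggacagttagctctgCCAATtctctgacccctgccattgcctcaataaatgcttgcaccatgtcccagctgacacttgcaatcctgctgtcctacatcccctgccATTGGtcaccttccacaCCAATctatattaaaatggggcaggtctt
The CCAAT letters begin 136, 46 and 29 bases before this start. The other starts hold none.

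The 4 genes of sterol movement and export did not pass, at differences from -0.34 to 0.69 (limma adjusted p = 0.459 to 0.717). Npc1 and Npc2, which pass cholesterol out of lysosomes, were at 7.92 and 6.55 against 7.52 and 8.32, and at 8.39 and 7.75 against 7.70 and 7.76. In both genes the groups overlapped. Stard4, a carrier of sterol between membranes, was at 6.58 and 5.76 against 6.47 and 6.79, overlapping as well. Abca1, the exporter to lipoproteins, was between 3.95 and 4.39, under background on every array.

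Genes next to the pathway were counted from 5 lists. Over all genes the unadjusted mark was reached by 3.67% toward lower and 8.99% toward higher signal. Among genes above the median row these shares were 6.17% and 5.64%. In isoprenoid use 0 of 10 measured genes reached the unadjusted mark, in SREBP processing and sterol-regulated degradation 0 of 8, in nuclear sterol receptors and efflux 0 of 6 and in sterol transfer and lysosome 0 of 15. The medians of these 4 lists were -0.05, -0.03, 0.17 and -0.08. In the list of fatty acid genes that SREBP-1 controls, 7 of 11 had a negative and 4 a positive difference, with a median of -0.50. At the unadjusted mark 4 of these 11 were lower and 0 higher. The desaturases Fads1 and Fads2 were at 10.11 and 9.79 against 5.10 and 5.45, and at 11.98 and 12.16 against 5.50 and 6.96. Fasn, the fatty acid synthase, was at 11.55 and 12.08 against 7.63 and 8.78. The differences of these 3 were -4.67 ± 0.45, -5.83 ± 0.68 and -3.61 ± 0.64 (SE; limma adjusted p = 0.241, 0.284 and 0.315). The fourth was Acly, which makes cytosolic acetyl-CoA, at -1.49.

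The pooled and the single samples can be set side by side. In the pooled pair 22 of 25 members were lower in Tip110-/-, with a median difference of -1.05, and in the single pair 14 of 25, with a median of -0.25. Over all genes 35% were lower in the pooled pair and 34.3% in the single pair; among genes above the median row these shares were 50.3% and 42.1%. There were 13 members lower in both pairs. In 10 members the signs were opposite, a share of 40% against 35% of all genes and 39.5% of genes above the median row. After lanosterol, 7 of 7 enzymes were lower in the pooled pair and 3 of 7 in the single pair. Among the mevalonate enzymes these counts were 5 of 5 and 4 of 5. Within wild-type, 19 of 25 members were lower in the single sample than in the pool. This held for 14707 of all 30142 genes and for 9349 of the 17491 above the median row. Within Tip110-/- 12 of 25 members were lower in the single sample, against 17639 of all genes and 8854 of those above the median row. Medians of the positive-control rows, wild-type then Tip110-/-, were 9.80 and 8.69 in the pooled pair and 9.66 and 9.51 in the single pair. Over genes above the median row the median difference was -0.0039 in the pooled pair and 0.095 in the single pair. Whether the lower controls bear on the members' differences was not tested. Each pair is 1 array against 1, so these are values without a test. When pools were compared with single samples across both genotypes, 0 of 25 members reached an unadjusted p under 0.05 in limma, where 3.27% of all genes did.

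**Figure D3:**
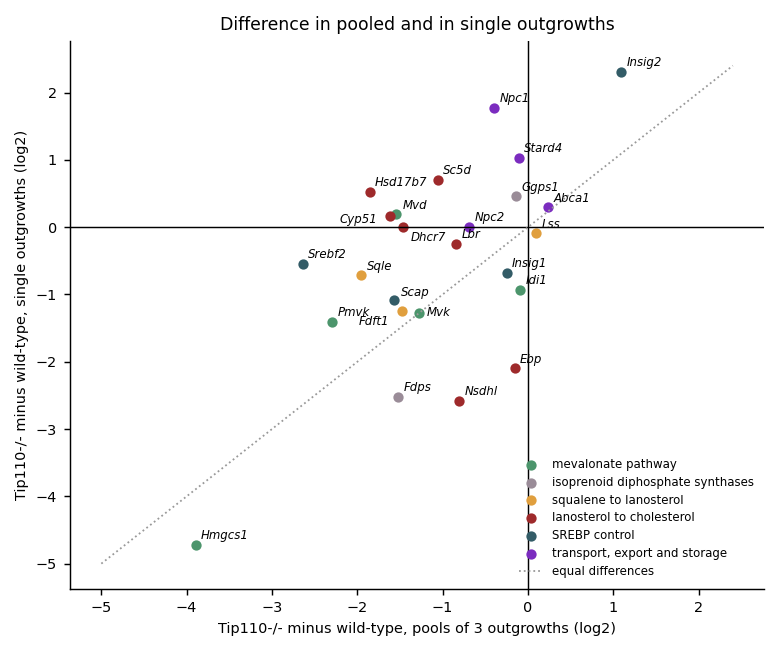
Difference in log2 signal, Tip110-/- minus wild-type, in the pools of 3 outgrowths (horizontal axis) and in the single outgrowths (vertical axis) for each of the 25 members, coloured by role; the dotted line marks equal differences. Hmgcs1 lies far below 0 on both axes, while Mvd, Cyp51, Hsd17b7, Sc5d and Dhcr7 are below 0 in the pools and at or above 0 in the single outgrowths.

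Some markers of the cells in an outgrowth differed with genotype. Over all genes 3.67% were lower and 8.99% higher at an unadjusted p under 0.05 in limma. Among genes above the median row these shares were 6.17% and 5.64%. Of 15 epiblast markers 10 had lower signal with an unadjusted p under 0.05, and 0 had higher; their summed linear signal was 36579 and 71777 for the wild-type arrays against 3522 and 1535 for the Tip110-/- arrays. Nanog, a factor of the pluripotent epiblast, had a Tip110-/- signal of 10.10 in the pool and of 4.15, under background, in the single outgrowth. All 7 measured markers of proliferation were lower, with sums of 10294 and 17005 against 1926 and 693. Of 11 giant cell and placental markers 5 were higher, with sums of 233869 and 146323 against 275936 and 656039. Prl2c2, not past the unadjusted mark, made the largest part of each of these sums. Of 11 trophoblast progenitor markers 2, Gata2 and Ets2, were higher. Sums over the 11 were 229357 and 158509 against 228394 and 384070, mostly from Krt8 and Krt18, neither past the unadjusted mark. None of 14 primitive endoderm markers passed, with sums of 9622 and 4748 against 3181 and 5109, and all 9 fibroblast markers were at or under background on every array. The members' own summed signal was 10380 and 7514 against 4008 and 4278. The part of cell mixture in the members' differences was not tested.

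The 2 Tip110-/- arrays differ in these markers, and the members can be set beside that. The epiblast median was 7.28 in the pooled and 5.37 in the single Tip110-/- sample, and that of proliferation 7.70 and 5.73. Among the 17 synthesis enzymes the median was 5.44 and 5.59 in the same order. In wild-type, pool first, the medians were 9.08 and 9.20 for epiblast and 10.08 and 11.06 for proliferation. For the 17 enzymes they were 6.76 and 6.64. In the single wild-type sample 12 of the 17 were lower than in the pool, against 9349 of 17491 genes above the median row. In the single Tip110-/- sample 8 of the 17, or 47.1%, were lower than in the pool, a share near that of genes above the median row (50.6%) and below that of all genes (58.5%). Single minus pooled, Hmgcs1 was -0.99, Fdps -1.07 and Nsdhl -1.42. The other 9 were at or above the pool, with Sqle at 0.72, Mvd at 0.93 and Hsd17b7 at 0.75. These differences rest on 1 array each, and the pooled Tip110-/- array was also the one with the lowest positive controls.

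**Figure D4:**
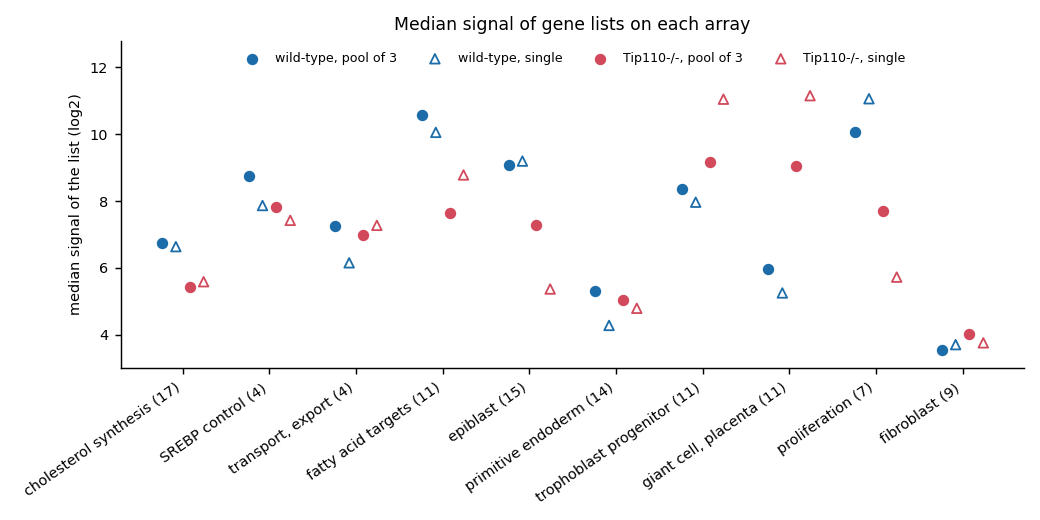
Median deposited log2 signal (vertical axis) of gene lists on each of the 4 arrays, with the number of measured genes in brackets; symbols and colours stand for pool, single outgrowth and genotype as named in the key. The medians of synthesis enzymes, SREBP control genes, fatty acid targets, epiblast and proliferation lie below the wild-type range on each Tip110-/- array, and those of the trophoblast progenitor, giant cell and placental and fibroblast lists lie above it, the last under background; levels are comparable between arrays within a list, not between lists.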

How the data were processed

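The authors deposited log2 signals for 72688 rows and 4 arrays; their range showed the log scale. Affymetrix Expression Console is named, beside Transcriptome Analysis Console, per the submitters' processing notes. The sources used here do not give versions, normalization or genome build. Per the labels' protocols 144 pg RNA was labelled per array, while the series' design text gives 100 pg.

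Of 65956 transcript rows, 30604 had 1 gene symbol, 2146 several and 33206 none. Symbols were taken from RefSeq by Entrez ID where a row's ID was found there (22818 rows, whether or not the symbol changed). For 355 genes with several rows the row with the highest mean was used. Each gene was fitted in R 4.3.3 with limma 3.58.1 (lmFit, eBayes with an intensity trend), with genotype as the sole term, two-sided, with Benjamini-Hochberg adjustment across 30142 genes. The fit was also run on simulated data with independent normal noise. These had no difference between pooled and single samples, so that run cannot show how the fit behaves with such replicates. With 2 arrays per genotype, their number limits the precision. Promoters came from RefSeq (GRCm38.p6). Figures and tables used Python 3.11.15, pandas 2.3.3 and matplotlib 3.10.9.

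The members and lists were chosen with earlier results of these data known. Members with an unadjusted p under 0.05 or a difference of at least 1 are given with all values; values of other members, and the gene Acly beyond 3 named neighbours per list, were added after they were seen. Of promoters, those of members past the mark with the sterol element core and of the widest difference each way were to be printed; for Insig2 the start with CCAAT letters was chosen after its sequence was seen. The settings tried were quantile normalization, centring, a median-row filter, cyclic loess, the mean of a gene's rows, other variance priors, all transcript rows, a replicate block and each array left out.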

Additional observations from a re-analysis of the deposited data

Results flagged for a closer look

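In 10 members the difference Tip110-/- minus wild-type had opposite signs in the pooled and in the single outgrowths. Each pair is 1 array against 1, so the difference between the pairs was not tested, and the members' share of 40% is near that of genes above the median row, 39.5% (35% of all genes). The single-pair difference minus the pooled-pair difference was 2.38 for Hsd17b7, 2.17 for Npc1, 1.79 for Cyp51, 1.76 for Sc5d, 1.74 for Mvd, 1.47 for Dhcr7 and 1.14 for Stard4. It was 0.70 for Npc2, 0.60 for Ggps1 and -0.18 for Lss, the last at background. Pooled and single pair values were -1.86 and 0.53 for Hsd17b7, -0.40 and 1.77 for Npc1, and 0.10 and -0.09 for Lss.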

How the results depend on the processing

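The count of 6 members lower at an unadjusted p under 0.05 was 6 to 8 under the 9 settings that used all arrays, and the count of 1 higher was 1 under each of them. With arrays left out in turn the counts ranged from 2 to 9 lower and from 0 to 1 higher. No setting gave a member an adjusted p under 0.05. The replicate number tells pool from single outgrowth, and the labels do not say that it pairs the samples. The deviations of same-numbered arrays correlated at -0.0903 across genes, which cannot tell whether they shared a litter or day. With the replicate block 6 members were lower and 1 higher. The members' median difference was between -1.09 and -0.43 in all settings. Of 325 values of single members under other settings, 290 had the same sign and side of the mark, 13 no longer reached it, 11 newly reached it and 11 changed sign. The sign changes were in differences of Ggps1, Lss, Hsd17b7, Sc5d and Dhcr7: Ggps1 at -0.0086 with centring and -0.20 to 0.52 with arrays left out; Lss at -0.20, -0.16 and -0.21 with quantile normalization, centring and cyclic loess, and at -0.061 to 0.073 with arrays left out; and, with arrays left out, Hsd17b7 at -1.48 to 0.15, Sc5d at -0.79 to 0.44 and Dhcr7 at -1.46 to 0.0060. The cause was not tested. Using the highest background row in place of the 95th percentile left 15 of 25 members above it on all arrays in place of 20.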
